A study of Homo sapiens with 12 samples.

Results

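The genes followed here were 9 of the 18377 with a probe set of their own: GCLM, GCLC, TXNRD1, SRXN1, NQO1, HMOX1, PGD, TKT and TALDO1. They were picked by name as targets of the transcription factor NRF2 (gene NFE2L2), grouped around glutathione and NADPH supply, though not all of them make either. The choice uses no threshold on these values, though earlier results of these data were known. Each was read by 1 probe set, so 9 of the 28869 probe sets are described, and none of the 9 probe sets named a second gene. The cells were HT29, an established human colon adenocarcinoma line that is sensitive to methotrexate. Methotrexate is an antifolate that blocks dihydrofolate reductase and so the supply of reduced folates. The 12 arrays fall into 4 groups of 3, labelled as biological replicates of 1 line. The groups are an untreated control, taken as 0 h, and cells kept for 8, 24 or 48 h in 70 nM methotrexate, all grown in F12 medium with serum. The later times have no untreated arrays of their own here, so drug and time in culture cannot be told apart.

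NRF2 is held low in unstressed cells by KEAP1, an adaptor that hands it to a ubiquitin ligase. When electrophiles or oxidants modify KEAP1, NRF2 builds up, pairs with a small MAF protein and binds antioxidant response elements in the genes it controls, many of which BACH1 represses. GCLM and GCLC, the modifier and catalytic subunits of glutamate-cysteine ligase, carry out the rate-limiting step of glutathione synthesis. TXNRD1 reduces thioredoxin, and SRXN1 repairs over-oxidised peroxiredoxins. NQO1 reduces quinones and HMOX1 degrades haem. PGD, TKT and TALDO1 belong to the pentose phosphate pathway, which makes NADPH in its oxidative arm (PGD) and rearranges sugars in its non-oxidative arm (TKT, TALDO1). NADPH is the electron source that glutathione reductase and thioredoxin reductase share.

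The antioxidant response element has the core TGACNNNGC. The windows around the start sites of GCLM, GCLC and TXNRD1 are shown in full as examples. They are not all of the genes that moved together, since SRXN1 and HMOX1 did so too. Whether a match goes with the course of a gene was not tested. Each window runs from 250 bases before the gene's annotated start to 50 bases from it on, 5′ to 3′ on the strand of the gene, from RefSeq on GRCh38.p14. The capitals mark matches to TGACNNNGC on either strand. GCLM lies on the minus strand of chromosome 1 (chr1:93909381-93909680), GCLC on the minus strand of chromosome 6 (chr6:53545052-53545351), and TXNRD1 on the plus strand of chromosome 12, with 2 annotated starts (chr12:104215529-104215828 and chr12:104286782-104287081).
GCLM: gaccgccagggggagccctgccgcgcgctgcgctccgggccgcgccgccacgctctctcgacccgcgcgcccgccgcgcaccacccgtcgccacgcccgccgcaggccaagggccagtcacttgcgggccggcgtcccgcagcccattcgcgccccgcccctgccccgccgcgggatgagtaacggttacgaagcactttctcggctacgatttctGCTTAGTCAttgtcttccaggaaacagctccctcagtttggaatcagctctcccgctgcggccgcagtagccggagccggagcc
GCLC: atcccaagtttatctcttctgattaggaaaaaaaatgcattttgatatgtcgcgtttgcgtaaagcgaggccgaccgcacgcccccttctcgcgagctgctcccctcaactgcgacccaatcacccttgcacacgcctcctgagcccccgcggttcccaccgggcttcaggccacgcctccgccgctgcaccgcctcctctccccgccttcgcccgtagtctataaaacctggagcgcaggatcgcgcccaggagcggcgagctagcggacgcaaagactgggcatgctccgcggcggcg
TXNRD1 first start: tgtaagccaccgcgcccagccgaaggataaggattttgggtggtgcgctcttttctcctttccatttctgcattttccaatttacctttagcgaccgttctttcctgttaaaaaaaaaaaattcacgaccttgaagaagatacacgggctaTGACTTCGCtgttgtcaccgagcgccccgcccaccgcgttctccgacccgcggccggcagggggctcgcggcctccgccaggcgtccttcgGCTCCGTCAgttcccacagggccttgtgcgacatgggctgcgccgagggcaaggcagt
TXNRD1 second start: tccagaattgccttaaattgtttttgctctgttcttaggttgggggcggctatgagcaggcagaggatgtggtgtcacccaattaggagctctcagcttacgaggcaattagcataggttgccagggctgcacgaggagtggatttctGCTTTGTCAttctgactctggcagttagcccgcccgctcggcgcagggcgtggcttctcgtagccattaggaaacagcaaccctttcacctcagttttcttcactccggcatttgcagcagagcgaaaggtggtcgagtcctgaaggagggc
In GCLM the only match reads TGACTAAGC on the opposite strand, at -34 to -26 from the start. In TXNRD1 the first window held TGACTTCGC on the gene's strand and TGACGGAGC on the opposite strand, and the second window held TGACAAAGC on the opposite strand. The GCLC window held no match. PGD, on the plus strand of chromosome 1, had 1 match on the opposite strand, TGACATTGC, in the stretch chr1:10398853-10398881.
PGD: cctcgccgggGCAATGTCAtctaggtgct
The windows of SRXN1, NQO1, TKT and TALDO1 held none, and HMOX1 had no window in the table used. In all, 4 of the 9 windows of these genes held TGACNNNGC, against 13.3% of the 35116 windows of all genes. Counted by gene it was 3 of 8, against 16.1% of 27305 genes, since each TXNRD1 window held a match. The AP-1 motif TGACTCA, which TGACNNNGC can contain, was in 0 of the 9 windows and in 4.95% of all. These matches describe letters in a short window and do not locate binding.

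Each deposited log2 value is relative to the median of the 3 control arrays, so every value below is a difference from control and the level of a gene is unknown. Whether colon markers are present in these cells could not be read from such values. Differences were tested with limma, all 12 arrays in 1 fit, and the word called stands for a p under 0.05 after Benjamini-Hochberg adjustment over all genes. The error given after ± is the SD of 3 arrays, and SE is limma's standard error of a difference. Replicate 3 of the 48 h group stood apart, with root mean square differences over all genes of 0.21 and 0.18 from the other 48 h arrays, against 0.09 to 0.14 between replicates elsewhere and between the other 48 h arrays. Calls at 48 h that change without it are given with and without it. A change in RNA per cell and a change in the share of cells of one state cannot be told apart in such bulk samples.

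**Figure D1:**
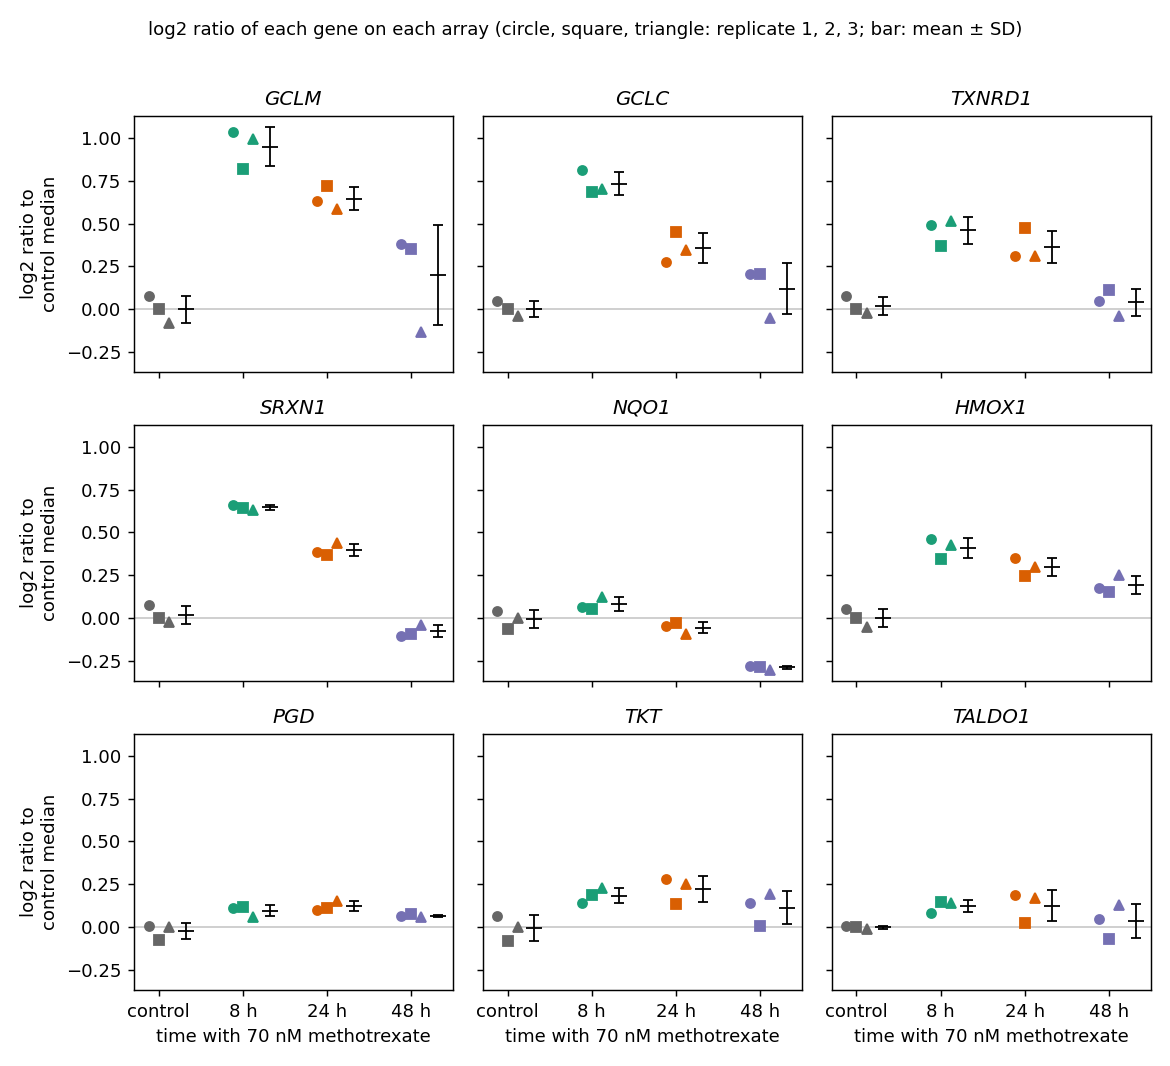
Log2 ratio to the control median of each of the 9 genes (vertical axes) on each of the 12 arrays, by group (horizontal axes). Circles, squares and triangles are replicates 1, 2 and 3 and the black bar is the mean ± SD of 3 arrays. The means of GCLM, GCLC, SRXN1, TXNRD1 and HMOX1 were highest at 8 h and lowest of the treated groups at 48 h, GCLM replicate 3 at 48 h lay at -0.14 while the other 48 h arrays lay at 0.38 and 0.35, and the 3 pentose phosphate genes stayed within 0.28 of the control median.

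Both subunits of glutamate-cysteine ligase rose early and then declined. GCLM read 1.03, 0.82 and 0.99 on the 3 arrays at 8 h, against 0.08, 0.00 and -0.08 in control. It then read 0.63, 0.72 and 0.59 at 24 h, and 0.38, 0.35 and -0.14 at 48 h. Every 8 h and 24 h array lay above all control arrays, the 8 h and 24 h values did not overlap, and at 48 h replicate 3 was below every control array. GCLM was thus 1.93-fold higher than control at 8 h (log2 difference 0.95, SE 0.11, adjusted p = 4.59e-05) and 1.57-fold higher at 24 h (0.65, adjusted p = 0.00147). At 8 h its difference had rank 29 from the highest of all 18377 genes. At 48 h the difference was 0.20 (95% interval -0.04 to 0.45, adjusted p = 0.246). Without 48 h replicate 3 it was 0.37 and passed the test (adjusted p = 0.00167). The SD of GCLM at 48 h was 0.29, against 0.07 to 0.11 in the other groups, while the fit uses 1 pooled spread.

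GCLC, the catalytic subunit, followed the same course at a smaller size. It read 0.81, 0.69 and 0.70 at 8 h, 0.27, 0.45 and 0.34 at 24 h, and 0.20, 0.20 and -0.05 at 48 h, with control arrays at 0.05, 0.00 and -0.04. The 8 h and 24 h arrays each lay above all control arrays and did not overlap each other. GCLC was 1.66-fold higher at 8 h (0.73, SE 0.07, adjusted p = 1.10e-05) and 1.28-fold higher at 24 h (0.35, adjusted p = 0.00458), and 48.3% of its 8 h difference was left at 24 h against 68.0% for GCLM. At 48 h the difference was 0.12 (95% interval -0.04 to 0.27, adjusted p = 0.309), and without replicate 3 it was 0.20 and passed (adjusted p = 0.0294). The array that was low in GCLM at 48 h was also the lowest of its group in GCLC, TXNRD1, NQO1 and PGD, and it was the highest in SRXN1, HMOX1, TKT and TALDO1.

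SRXN1, which reactivates peroxiredoxins, had the tightest replicates of the group at 8 h. Its values were 0.66, 0.65 and 0.63 at 8 h, 0.39, 0.37 and 0.44 at 24 h, and -0.10, -0.09 and -0.04 at 48 h, against 0.08, 0.00 and -0.02 in control. None of the 4 groups overlapped another. SRXN1 was 1.54-fold higher at 8 h (0.63, SE 0.04, adjusted p = 6.50e-07) and 1.30-fold higher at 24 h (0.38, adjusted p = 6.85e-05). At 48 h all 3 arrays were below all control arrays, by a mean of -0.10 that did not pass the test (95% interval -0.19 to 0.00, adjusted p = 0.154).

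TXNRD1, the cytosolic thioredoxin reductase, kept most of its early rise at 24 h. It read 0.49, 0.37 and 0.51 at 8 h and 0.31, 0.47 and 0.31 at 24 h, and these groups overlapped. At 48 h it read 0.05, 0.11 and -0.04, within reach of the control arrays at 0.08, 0.00 and -0.02. The differences from control were 0.44 at 8 h (SE 0.06, 1.36-fold, adjusted p = 0.000203), 0.34 at 24 h (1.27-fold, adjusted p = 0.00192) and 0.02 at 48 h (95% interval -0.12 to 0.16, adjusted p = 0.886). The share of the 8 h difference left at 24 h was 78.3%.

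HMOX1, which opens the haem ring, was the only one of the 9 genes called higher at all 3 times. Its arrays read 0.46, 0.35 and 0.42 at 8 h, 0.35, 0.24 and 0.30 at 24 h, and 0.18, 0.15 and 0.25 at 48 h, with control arrays at 0.05, 0.00 and -0.05. All 9 treated arrays lay above all control arrays, while neighbouring times overlapped. The differences were 0.41 (SE 0.05, 1.33-fold, adjusted p = 7.46e-05), 0.30 (1.23-fold, adjusted p = 0.00139) and 0.20 (1.14-fold, adjusted p = 0.0136). Leaving out control replicate 3 ended the 48 h call (0.17, adjusted p = 0.0561).

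NQO1, often used as a marker of NRF2 activity, took another course. At 8 h its arrays read 0.06, 0.05 and 0.13, above the control values of 0.04, -0.06 and 0.00, but the difference of 0.09 did not pass the test (SE 0.05, 95% interval -0.01 to 0.18, adjusted p = 0.213). At 24 h the arrays read -0.05, -0.03 and -0.09 and overlapped control (difference -0.05, adjusted p = 0.558). At 48 h they read -0.28, -0.28 and -0.30, all below control, and NQO1 fell by 0.28 on the log2 scale (SE 0.05, 1.22-fold lower, adjusted p = 0.000439). NQO1 was the only one of the 9 genes called lower than control at any time.

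The 3 pentose phosphate genes moved little. TKT, the transketolase, read 0.14, 0.19 and 0.23 at 8 h, 0.28, 0.14 and 0.25 at 24 h, and 0.14, 0.01 and 0.20 at 48 h, against 0.07, -0.08 and 0.00 in control. It was 1.14-fold higher at 8 h (0.19, SE 0.06, adjusted p = 0.0409) and 1.17-fold higher at 24 h (0.23, adjusted p = 0.0227). Leaving out control replicate 2 or 3, any 8 h array or 24 h replicate 3 ended the 8 h call (adjusted p = 0.0509 to 0.170) and so did centring each array on its median (0.17, adjusted p = 0.0536). Leaving out control replicate 2 or 3, or 24 h replicate 1 or 3, ended the 24 h call (adjusted p = 0.0522 to 0.108). PGD, the 6-phosphogluconate dehydrogenase of the NADPH-making arm, read 0.11, 0.12 and 0.06 at 8 h and 0.10, 0.11 and 0.15 at 24 h, with control arrays at 0.00, -0.08 and 0.00. Every array at these times was above all control arrays. PGD differed by 0.12 at 8 h (SE 0.04, adjusted p = 0.0632) and was called higher at 24 h (0.15, 1.11-fold, adjusted p = 0.0335). Leaving out any 1 of these control or 24 h arrays ended the call (adjusted p = 0.0513 to 0.147), as did a fit of these 2 groups alone (adjusted p = 0.0666). TALDO1, the transaldolase, differed by 0.13 at 8 h (SE 0.06, adjusted p = 0.158) and 0.13 at 24 h (adjusted p = 0.175), and its 48 h difference was 0.04 (95% interval -0.09 to 0.16, adjusted p = 0.742). Its arrays ran from 0.08 to 0.15 at 8 h, from 0.02 to 0.19 at 24 h and from -0.07 to 0.13 at 48 h, against -0.01 to 0.01 in control.

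Counted over the group, 6 of the 9 genes were higher than control at 8 h and 0 were lower, where 12.1% of all genes were called higher, 12.0% lower and 24.2% in either direction. The genes called at 8 h were GCLM, GCLC, SRXN1, TXNRD1, HMOX1 and TKT. At 24 h 7 of 9 were higher and 0 lower, where 8.69% of all genes were called higher, 8.02% lower and 16.7% in either direction, PGD joining the 6. At 48 h 1 was higher and 1 lower (13.0% of all genes higher, 12.3% lower, 25.3% either), which is near that background. With 48 h replicate 3 left out, 4 were called at 48 h, in a fit that called 24.2% of all genes. Requiring a 1.5-fold change as well left 3 of 9 genes at 8 h (3.25% of all genes), 1 at 24 h (2.41%) and 0 at 48 h (3.74%). The median difference of the 9 genes was 0.41 at 8 h, 0.30 at 24 h and 0.09 at 48 h, where the median of all genes was 0.02, 0.02 and 0.01. The 3 treated values did not overlap the 3 control values in 9 of the 9 genes at 8 h (37.9% of all genes), in 8 at 24 h (33.0%) and in 4 at 48 h (35.7%). These 3 comparisons share their control arrays, so their counts are not independent. By limma's moderated F test 7 of the 9 genes differed among the 4 groups (38.8% of all genes), the exceptions being PGD (adjusted p = 0.0626) and TALDO1 (adjusted p = 0.222).

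**Figure D2:**
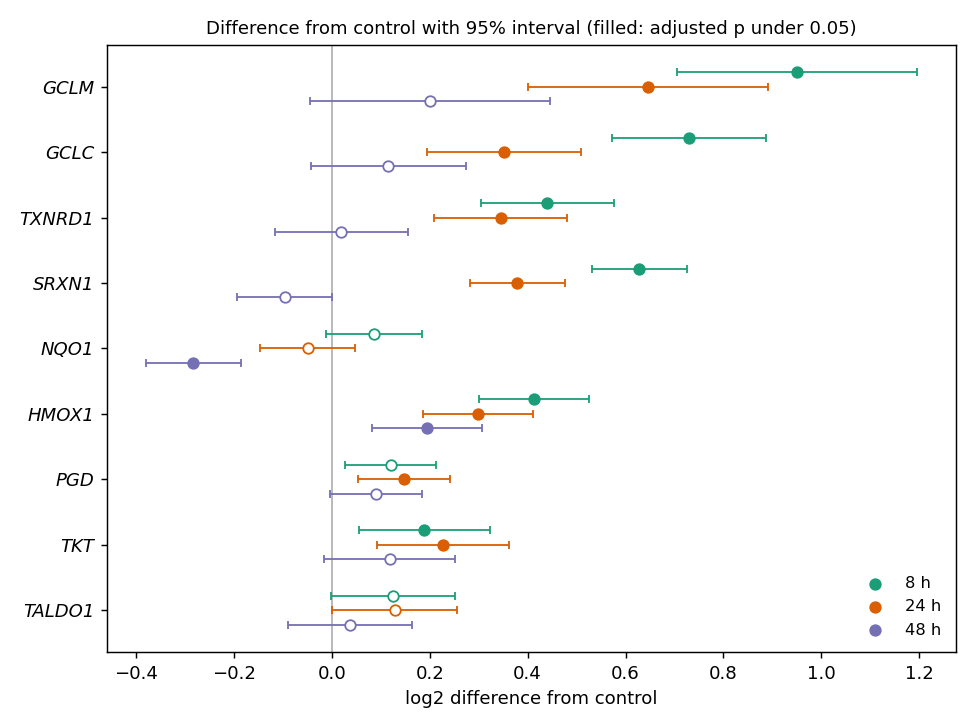
Log2 difference from control (horizontal axis) of each of the 9 genes (vertical axis) at 8, 24 and 48 h, with its 95% interval from limma over 12 arrays. Filled points passed an adjusted p under 0.05: 6 genes at 8 h, 7 at 24 h, and HMOX1 and NQO1 at 48 h, where only NQO1 was lower.

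**Figure D3:**
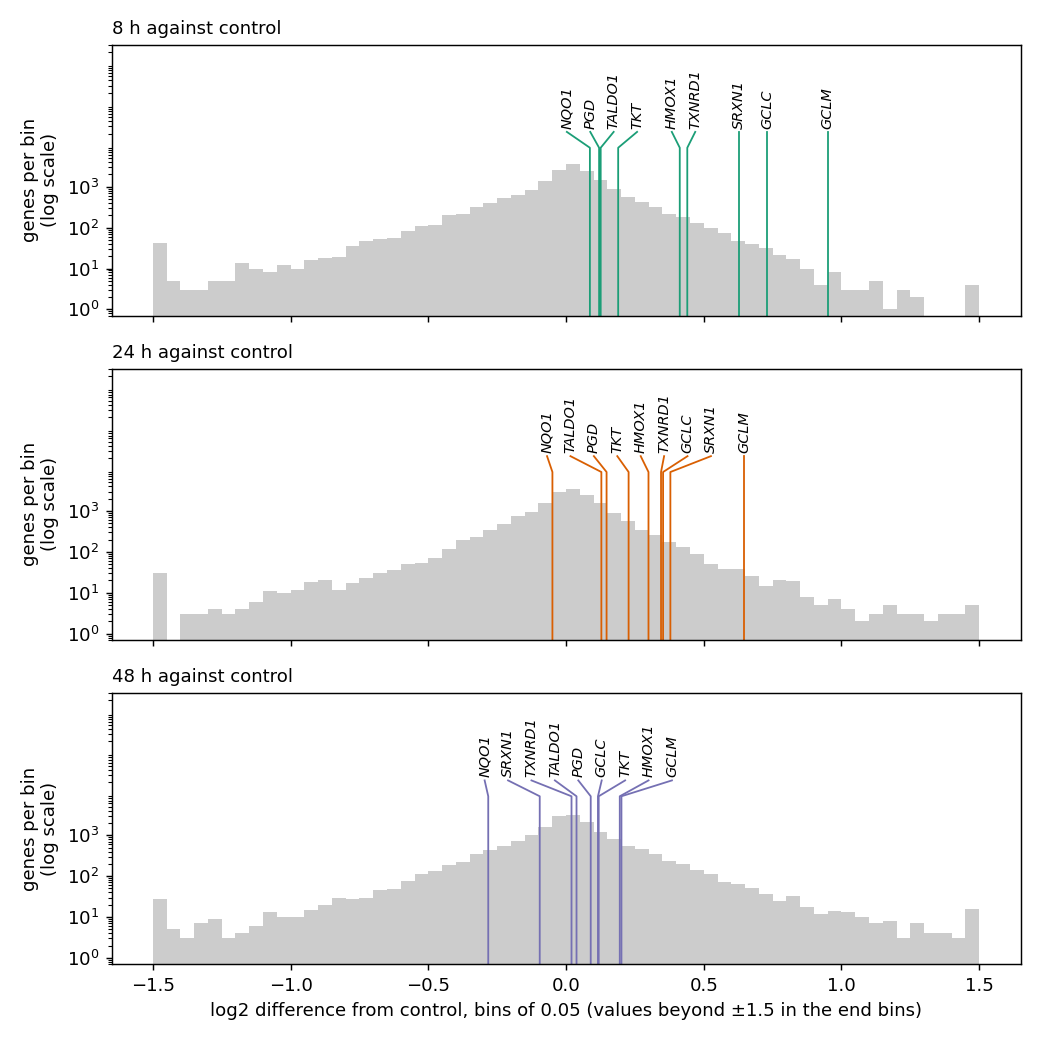
Number of genes (vertical axes, log scale) by log2 difference from control (horizontal axis, bins of 0.05, values beyond ±1.5 in the end bins) for all 18377 genes at 8, 24 and 48 h, with the 9 genes marked by lines. At 8 h all 9 lines lie above 0, with GCLM at 0.95 and GCLC at 0.73 in the upper tail, and at 48 h the lines lie between -0.28 and 0.20.

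Changes between the treated groups were tested directly, since their differences do not use the control arrays. From 8 to 24 h GCLC fell by 0.38 (SE 0.07, adjusted p = 0.00233) and SRXN1 fell by 0.25 (SE 0.04, adjusted p = 0.00147). GCLM differed by -0.30 (SE 0.11, adjusted p = 0.0837) and NQO1 by -0.14 (adjusted p = 0.0516). Both of these passed without 48 h replicate 3, which changes the pooled spread but not the difference (adjusted p = 0.00302 for GCLM and 0.0449 for NQO1). So 2 of 9 genes were called lower at 24 h than at 8 h and 0 higher, against 9.40% of all genes called lower, 9.99% higher and 19.4% in either direction, and 4 of 9 were called lower without that array, where 23.4% of all genes were called in either direction. TXNRD1 (-0.10, adjusted p = 0.389), HMOX1 (-0.11, adjusted p = 0.170), PGD (0.03), TKT (0.04) and TALDO1 (0.00) did not pass. The arrays of these 2 times did not overlap in 4 of 9 genes (33.3% of all genes), and 0 passed with at least a 1.5-fold change (2.37%).

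From 24 to 48 h SRXN1 fell by 0.47 (SE 0.04, adjusted p = 3.56e-05), TXNRD1 by 0.32 (SE 0.06, adjusted p = 0.00555), NQO1 by 0.23 (SE 0.05, adjusted p = 0.00561) and GCLM by 0.44 (SE 0.11, adjusted p = 0.0244). The GCLM call was lost without any 1 of the 24 h arrays (adjusted p = 0.0563 to 0.0762) and in a fit of only these 2 groups (adjusted p = 0.103). GCLC differed by -0.24 (adjusted p = 0.0596). Thus 4 of 9 genes were called lower and 0 higher, against 4.86% of all genes called lower, 5.26% higher and 10.1% in either direction, and 0 passed with at least a 1.5-fold change (0.740% of all genes). All 9 differences were below 0, and the 3 arrays of each group did not overlap in 6 of the 9 genes (24.0% of all genes).

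Over the whole interval from 8 to 48 h, 6 of 9 genes fell and 0 rose, against 14.4% of all genes called lower, 15.3% higher and 29.7% in either direction. They were GCLM (-0.75, SE 0.11), SRXN1 (-0.72, SE 0.04), GCLC (-0.61, SE 0.07), TXNRD1 (-0.42, SE 0.06), NQO1 (-0.37, SE 0.05) and HMOX1 (-0.22, SE 0.05), with adjusted p from 1.17e-07 for SRXN1 to 0.00566 for HMOX1. This count was 6 in each fit that left out 1 array, where 25.7% to 31.3% of all genes were called in either direction. The arrays did not overlap in 6 of 9 genes (37.8% of all genes), and 3 fell by at least 1.5-fold (5.62%). The pentose phosphate genes did not pass (PGD -0.03, TKT -0.07, TALDO1 -0.09). Their 95% intervals ran from -0.12 to 0.06, -0.20 to 0.06 and -0.21 to 0.04.

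**Figure D4:**
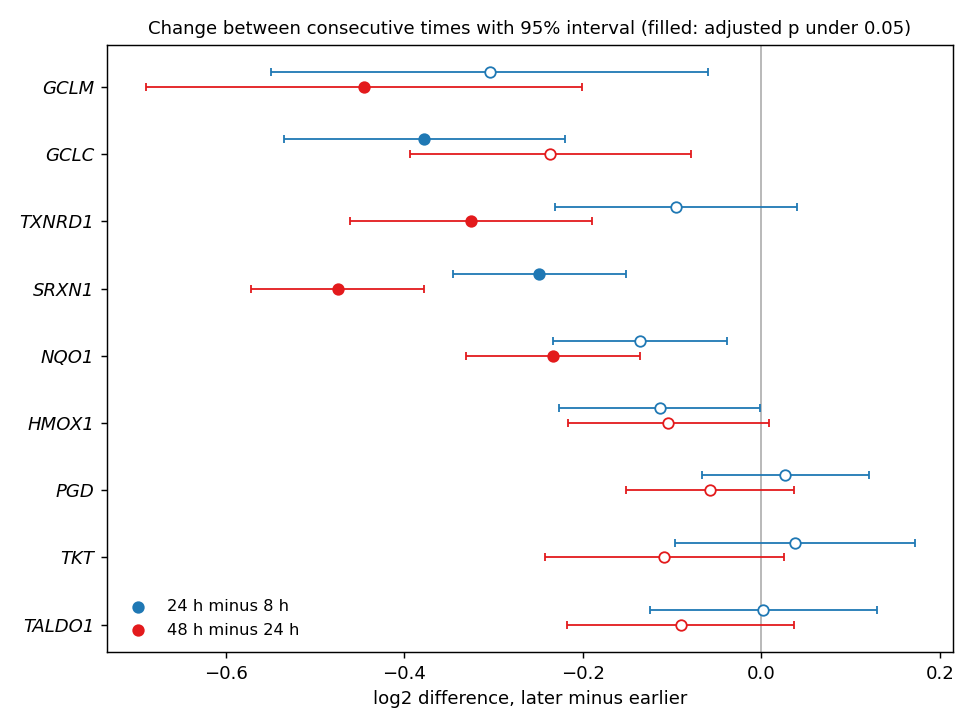
Log2 difference between consecutive times, later minus earlier (horizontal axis), of each of the 9 genes (vertical axis), with its 95% interval from limma. Filled points passed an adjusted p under 0.05. GCLC and SRXN1 fell from 8 to 24 h, SRXN1, GCLM, TXNRD1 and NQO1 fell from 24 to 48 h, and PGD, TKT and TALDO1 passed in neither step.

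The list of other genes of glutathione synthesis and breakdown held changes in both directions. Of 10 tested, 3 were higher and 5 lower at 8 h, 1 and 5 at 24 h, and 0 and 5 at 48 h, with list medians of -0.23, -0.09 and -0.33. For comparison with this and each later list, 12.1% of all genes were called higher and 12.0% lower at 8 h. These shares were 8.69% and 8.02% at 24 h, and 13.0% and 12.3% at 48 h. A list count near these shares is not a result about that list. Leaving out 1 array in turn gave 1 to 3 higher at 8 h (1 without control replicate 2 or 3 or 8 h replicate 2) and 1 to 2 at 24 h, with 5 to 6 lower at 48 h. SLC7A11, the cystine importer that feeds the ligase and is itself a known NRF2 target, fell by 0.41 at 8 h (SE 0.09), 0.64 at 24 h and 1.75 at 48 h, where it was 3.37-fold lower (adjusted p = 2.95e-08). CTH, which makes cysteine, was 2.61-fold lower at 8 h, 2.04-fold lower at 24 h and 2.98-fold lower at 48 h. CHAC1, which breaks glutathione down, was 3.94-fold, 2.40-fold and 4.76-fold lower. GSS, SLC3A2 and CHAC2 of this list were singled out after their values were seen. GSS, the enzyme that completes glutathione, was higher at 8 h (0.22, adjusted p = 0.0260) and 24 h (0.29, adjusted p = 0.00723), and its 8 h call was lost without any 1 of 4 arrays (adjusted p = 0.0725 to 0.106). SLC3A2, the partner chain of the cystine importer, fell by 0.26, 0.21 and 0.29 at the 3 times. CHAC2, a slower relative of CHAC1, was 1.62-fold higher at 8 h (0.69, SE 0.14, adjusted p = 0.00255), and differed by 0.03 at 24 h and -0.37 at 48 h (adjusted p = 0.0741).

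Among 20 genes that use or recycle glutathione, 3 were higher and 4 lower at 8 h, 2 and 2 at 24 h, and 3 and 4 at 48 h. Of all genes, 8.69% were higher and 8.02% lower at 24 h, so the 24 h counts were near that background. The 24 h counts ranged from 1 to 3 higher and from 0 to 2 lower with 1 array left out. GLRX, a glutaredoxin, fell by 0.74 at 8 h (SE 0.08, adjusted p = 2.26e-05) and differed by -0.02 at 24 h and 0.04 at 48 h. GPX3, a secreted glutathione peroxidase, rose by 0.31 at 24 h and 0.44 at 48 h (adjusted p = 2.24e-05). GSTM4, a glutathione transferase with close paralogs that its probes may share, fell by 0.27 at 8 h (SE 0.07, adjusted p = 0.0125), rose by 0.23 at 24 h (adjusted p = 0.0409) and was 1.91-fold higher at 48 h (0.93, adjusted p = 6.78e-07). Its 8 h call was lost in 3 fits that left out 1 array and its 24 h call in 6. GSR, the NADPH-dependent glutathione reductase, was singled out after its values were seen. It rose by 0.30 at 8 h (SE 0.06, adjusted p = 0.00301), differed by 0.13 at 24 h (adjusted p = 0.188) and fell by 0.27 at 48 h (adjusted p = 0.00686).

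In the thioredoxin and peroxiredoxin list, 5 of 14 genes were higher and 3 lower at 8 h, 0 and 2 at 24 h, and 0 and 5 at 48 h. Without 8 h replicate 1, 3 were higher at 8 h, and without 48 h replicate 3, 1 was higher at 24 h and 2 at 48 h. Without control replicate 3, 1 was higher at 48 h. TXN, the thioredoxin that TXNRD1 reduces, rose by 0.52 at 8 h (1.43-fold, SE 0.09, adjusted p = 0.00132), differed by 0.15 at 24 h (adjusted p = 0.368) and fell by 0.33 at 48 h (adjusted p = 0.0219). Leaving out control replicate 3 (-0.28, adjusted p = 0.0826) or 48 h replicate 3 (-0.20, adjusted p = 0.0542) ended that 48 h call. TXNIP, which inhibits thioredoxin, was 3.17-fold, 3.63-fold and 2.62-fold lower at 8, 24 and 48 h. SESN2, a stress-induced sestrin, fell by 1.22, 0.78 and 1.30.

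Of 15 other genes of NADPH supply, 4 were higher and 3 lower at 8 h, 2 and 2 at 24 h, and 2 and 4 at 48 h. Leaving out 1 array in turn gave 2 to 5 higher at 8 h, and 0 to 2 higher and 1 to 4 lower at 24 h. The low of 2 at 8 h came without control replicate 2 or 3, 8 h replicate 1 or 2, or 24 h replicate 1 or 3. The low of 0 at 24 h came without control replicate 2 or 3 or 24 h replicate 3, and the high of 4 without 48 h replicate 3. The 3 named by size had their largest differences at 48 h. ME3, a mitochondrial malic enzyme, was 1.73-fold higher (0.79, SE 0.05). NADK2, the mitochondrial NAD kinase, was 1.75-fold lower (-0.81, SE 0.11), and RPIA, of the non-oxidative pentose phosphate arm, was 1.58-fold lower (-0.66, SE 0.09). ME1, the cytosolic malic enzyme and a known NRF2 target, was singled out after its values were seen. It rose by 0.25 at 8 h (SE 0.05, adjusted p = 0.00140), differed by -0.05 at 24 h and fell by 0.46 at 48 h (adjusted p = 1.00e-05).

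Beside HMOX1, 5 of 10 haem and iron genes were higher and 2 lower at 8 h, with 3 and 0 at 24 h and 3 and 0 at 48 h. Without control replicate 2 or 8 h replicate 2, 3 were higher at 8 h, and without 48 h replicate 3, 1 was lower at 48 h. TFRC, the transferrin receptor, was 1.74-fold higher at 8 h (0.80, SE 0.05) and 1.27-fold higher at 24 h. ABCB6, a porphyrin transporter, rose by 0.48 at 8 h and 0.21 at 48 h (adjusted p = 0.0102, and 0.0527 without control replicate 2). SLC40A1, the iron exporter ferroportin, fell by 0.46 at 8 h. It differed by -0.18 at 24 h (adjusted p = 0.154) and 0.01 at 48 h. The list of other detoxification genes held the largest rises. Of its 17 tested genes 11 were higher and 2 lower at 8 h, 6 and 1 at 24 h, and 3 and 5 at 48 h, with medians of 0.32, 0.15 and -0.08. Without control replicate 1, 3 were lower at 48 h. AKR1B10, an aldo-keto reductase, was 2.88-fold higher at 8 h and 1.95-fold lower at 48 h. AKR1C2, whose near-identical paralogs may share its probes, was 2.38-fold higher at 8 h and 1.76-fold higher at 24 h. ALDH3A1, an aldehyde dehydrogenase, was 2.32-fold higher at 8 h and 1.95-fold higher at 24 h. At 48 h it differed by -0.13 (adjusted p = 0.340), and by -0.23 with a call without 48 h replicate 3 (adjusted p = 0.0158).

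Among the regulators of the pathway, the RNA for NRF2 was called lower at all 3 times and that for KEAP1 higher at 8 and 24 h. NFE2L2, which encodes NRF2, was lower by -0.26 at 8 h (SE 0.09, adjusted p = 0.0401), -0.28 at 24 h (adjusted p = 0.0417) and -0.43 at 48 h (adjusted p = 0.00211). Its 48 h call held without each array in turn. The 8 h call was lost in 7 of these fits (adjusted p = 0.0503 to 0.142) and the 24 h call in 8 (adjusted p = 0.0523 to 0.190). Both sets include the fits without each control array, 8 h replicates 2 and 3, 24 h replicate 3 and 48 h replicate 2, and the 24 h call was also lost without 24 h replicate 1. KEAP1, its inhibitor, was 1.21-fold higher at 8 h (0.27, SE 0.07, adjusted p = 0.0162) and 1.30-fold higher at 24 h (0.38, adjusted p = 0.00348), and leaving out control replicate 3 or 8 h replicate 1 ended the 8 h call (adjusted p = 0.0729 and 0.0716). At 48 h KEAP1 differed by 0.21 (adjusted p = 0.0517), and by 0.25 with a call without 48 h replicate 3 (adjusted p = 0.0333). BACH1, the repressor of NRF2 targets, fell by 0.41 at 8 h (SE 0.07, adjusted p = 0.00103), differed by -0.19 at 24 h (adjusted p = 0.0945) and by 0.01 at 48 h. PGAM5, a mitochondrial phosphatase that binds KEAP1, rose by 0.39 at 8 h. Of 17 regulators 3 were higher and 5 lower at 8 h, 1 and 2 at 24 h, and 1 and 3 at 48 h. Of all genes 12.1% were higher and 12.0% lower at 8 h, 8.69% and 8.02% at 24 h, and 13.0% and 12.3% at 48 h. The 24 h and 48 h counts of regulators were near that background. With 1 array left out, 1 to 4 were higher and 3 to 5 lower at 8 h, 1 to 3 and 0 to 4 at 24 h, and 0 to 2 and 2 to 4 at 48 h. These are RNA values, and NRF2 activity is largely set by the amount of its protein, which was not measured.

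**Figure D5:**
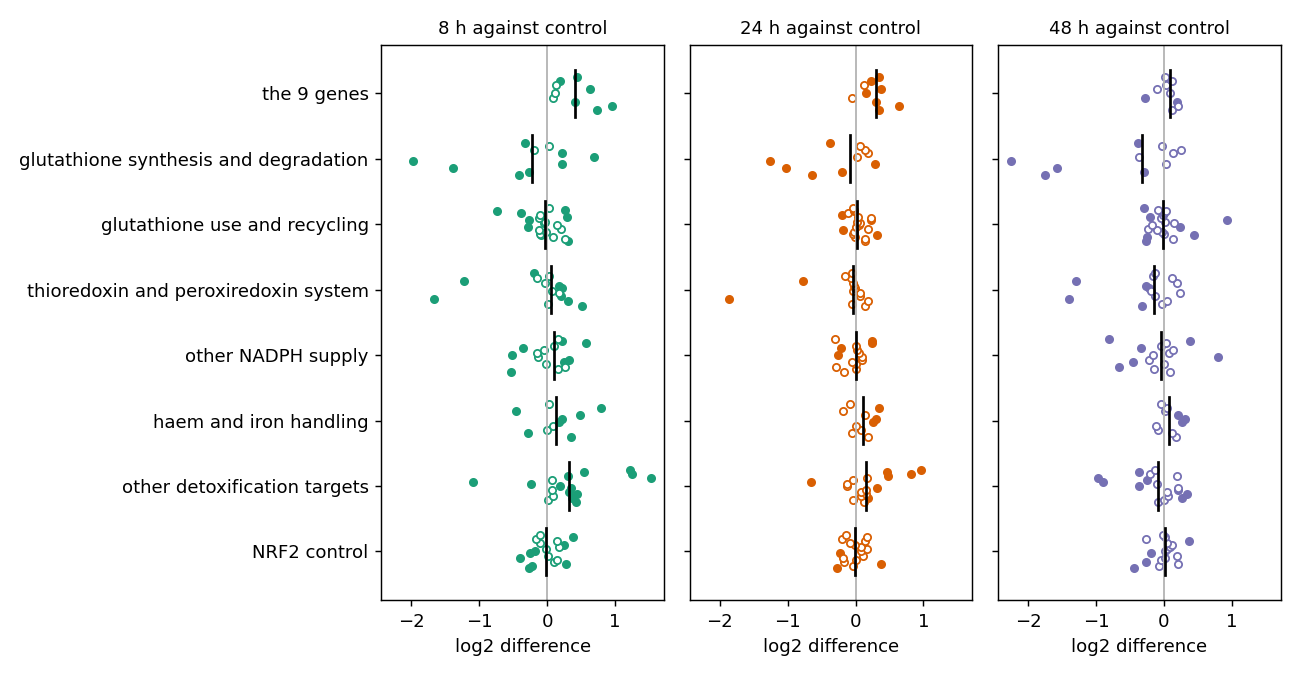
Log2 difference from control (horizontal axes) of the 9 genes and of the tested genes of 7 pathway lists (rows) at 8, 24 and 48 h, 1 point per gene. Filled points passed an adjusted p under 0.05 and black bars are list medians. The 9 genes and the other detoxification targets had medians of 0.41 and 0.32 at 8 h, and glutathione synthesis and degradation had a median of -0.23.

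The mean of the 9 genes ran from 0.37 to 0.43 on the 8 h arrays and stood at 0.27 to 0.28 on the 24 h arrays. At 48 h it was 0.01 to 0.08, against -0.03 to 0.05 in control. Pearson correlations with this mean over the 12 arrays, which share their groups and so are given as a description, were 0.96 for GCLM, GCLC, TXNRD1 and SRXN1, 0.89 for HMOX1, and 0.59 to 0.70 for NQO1 and the pentose phosphate genes. Each of the 9 genes is part of that mean, so its correlation is raised in advance, most for genes with large changes. Genes outside the group were ranked by this correlation only if they passed the F test, as 38.8% of all genes did. The 6 with the highest correlation were SAAL1, HPRT1, APEX2, COTL1, RRP1B and RFC3 (0.97 or 0.98 each). They were picked for that correlation, so their group means follow the course of the 9 genes by selection. HPRT1, the purine salvage enzyme, had group means of 0.56, 0.35 and 0.06 at 8, 24 and 48 h. RFC3, a subunit of the replication clamp loader, had means of 0.51, 0.27 and 0.10, and APEX2, a nuclease of base repair, had 0.61, 0.39 and 0.09.

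Markers of other cell types were read beside these changes. Of 12 fibroblast markers 0 passed at any time with all 12 arrays, with differences from -0.04 to 0.21. At 48 h 2 passed as higher without 48 h replicate 1 and 1 without 48 h replicate 3. Of 11 leukocyte and endothelial markers 1 was called, CD68, a lysosomal membrane protein of macrophages, which rose by 0.35, 0.85 and 1.08 at 8, 24 and 48 h. Of 15 colon epithelial markers 2 were higher and 2 lower at 8 h, 4 and 1 at 24 h, and 3 and 1 at 48 h. Of all genes 12.1% were higher and 12.0% lower at 8 h, 8.69% and 8.02% at 24 h, and 13.0% and 12.3% at 48 h. The 8 h counts were near that background. With 1 array left out, 1 to 2 colon markers were higher at 8 h and 1 to 2 lower at 24 h and 48 h. Among the colon markers LGALS4, an intestinal lectin, fell by 0.64 at 8 h, CEACAM5, an adhesion molecule, was 1.73-fold higher at 24 h, and KRT20, a keratin of mature colon cells, was 1.44-fold higher at 24 h. The part of these marker changes in the course of the 9 genes was not tested.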

How the data were processed

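HT29 RNA from 12 arrays (Affymetrix HuGene 1.0 ST, per the series' design text) was analysed. The deposited values are from RMA with build hg19, both without a version, per the submitters' processing notes. In all 28869 deposited probe sets the median of the 3 control arrays was 0, so the values were read as log2 ratios to it. The sources used here do not name the step that centred them, and base 2 was taken from RMA. Without levels, dim probe sets could not be filtered. Array number limits the precision.

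Probe sets were named from the platform annotation: 19310 had 1 gene, 1752 several and 7807 none named here. A gene's single-gene probe sets were averaged, giving 18377 genes. limma 3.58.1 in R 4.3.3 fitted 1 mean per group over 12 arrays (8 residual and 4.71 prior degrees of freedom). The 6 pairwise comparisons were tested two-sided with Benjamini-Hochberg adjustment over all genes in each. The p-values set each difference against the spread between these arrays, which limma moderates towards that of all genes. The fit was tested on simulated data. Figures used Python 3.11.15 and matplotlib 3.10.9.

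The members, lists and tests were chosen with earlier results of these data known. All 9 members are named, with up to 3 called genes per list by largest difference from control, NFE2L2 and KEAP1, and the 6 genes most correlated with the members' mean. Those 6 were sought among genes outside the members with an adjusted p under 0.05 by the F test. Of 152 listed genes 11 were not analysed here. Alternatives were the replicate block, centring, array weights, a robust prior, 2-group fits, single probe sets, shared probe sets, stricter thresholds and leaving out each array.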

Additional observations from a re-analysis of the deposited data

Results flagged for a closer look

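Several of the 9 genes had a difference from control that changed with time, by limma's test of 1 treated group against another. From 8 to 24 h these were GCLC (-0.38, adjusted p = 0.00233) and SRXN1 (-0.25, adjusted p = 0.00147). From 24 to 48 h they were SRXN1 (-0.47, adjusted p = 3.56e-05), GCLM (-0.44, adjusted p = 0.0244), TXNRD1 (-0.32, adjusted p = 0.00555) and NQO1 (-0.23, adjusted p = 0.00561). From 8 to 48 h they were GCLM (-0.75), SRXN1 (-0.72), GCLC (-0.61), TXNRD1 (-0.42), NQO1 (-0.37) and HMOX1 (-0.22). Groups of 3 arrays are too small for a test of single outlying arrays.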

How the results depend on the processing

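No called difference of the 9 genes changed sign under these settings. Of 1134 recomputed differences of the 9 genes, 1062 kept their side of the threshold, 49 lost their call and 23 gained one. Many of these are the main differences again. Each gene has 1 probe set and none shared, and the block, robust prior, 2-group fits and stricter thresholds keep the difference. A change of sign could come only from centring, array weights or leaving out an array of a compared group. These counts are thus a weak check. Leaving out 1 array gave 5 to 6 called genes at 8 h, 5 to 7 at 24 h, 1 to 4 at 48 h (1 without control replicate 3, 4 without 48 h replicate 3), 2 to 4 for 24 h against 8 h, 3 to 4 for 48 h against 24 h, 6 to 6 for 48 h against 8 h, and 6 to 7 by the F test. With array weights, which put most of the 48 h weight on replicate 2 (6.52), 6 genes were called at 48 h (40.6% of all genes, against 25.3% without weights), 4 for 24 h against 8 h (28.6% against 19.4%) and 8 for 48 h against 24 h (32.1% against 10.1%). At 8 h the weights gave 8 called genes (35.8% against 24.2%), and at 24 h 8 (33.1% against 16.7%). For 48 h against 8 h they gave 8 (46.6% against 29.7%). At an adjusted p under 0.01, 1 was called at 48 h. With at least a 1.5-fold change, 3 were called at 8 h, 1 at 24 h, 0 at 48 h, 0 for 24 h against 8 h, 0 for 48 h against 24 h and 3 for 48 h against 8 h. The titles give only a replicate number. Same-numbered arrays had residual correlations of -0.45 to 0.47 (median 0.15), against -0.67 to 0.60 (median -0.16) for other pairs. An array correlated best with its own number in 14 of 36 cases. Whether the numbers mark a pairing is not settled by these values. With the replicate number as a block, 6 genes were called at 8 h, 6 at 24 h, 2 at 48 h, 3 for 24 h against 8 h, 5 for 48 h against 24 h, 6 for 48 h against 8 h and 7 by the F test. The share of all genes called with the block, or at an adjusted p under 0.01, is not given here. The block ended the PGD call at 24 h (adjusted p = 0.0521), and GCLM passed from 8 to 24 h (adjusted p = 0.0477) and GCLC from 24 to 48 h (adjusted p = 0.0424). Of 1260 recomputed list counts, 1079 stayed within 1.5 times of the reported count, 124 were smaller and 57 larger. Centring moved all genes by at most 0.04 per array. The centred values hold no signal over background, so a small difference in a dim probe set cannot be told from a small change.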
